A study of Homo sapiens with 4 samples.

Results

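Peaks on small noncoding RNA genes were examined in RIP-seq data for NSUN2, in which RNA recovered with a protein by immunoprecipitation (IP) is sequenced beside RNA of the whole lysate, called the input. NSUN2 is an RNA methyltransferase that places 5-methylcytosine (m5C), and it is known for its methylation of tRNAs and vault RNAs. Wild-type PANC-1 cells, an established line of human pancreatic ductal adenocarcinoma, received sodium lactate at 30 mM or ddH2O as the vehicle for 24 h. Each condition had 1 IP library made with an anti-NSUN2 antibody and 1 input library made without antibody, 4 libraries in all, so no value below has a replicate error and no p-value between conditions was computed. A peak was counted when its annotation named a gene of biotype misc_RNA, snRNA, snoRNA, scaRNA or miRNA, and the other 6 biotypes searched for, among them rRNA and ribozyme, had no peak. The rule selected 70 of 48104 lactate peaks and 157 of 95785 ddH2O peaks, or 227 peaks on 197 genes. The table of merged peaks, in which the authors joined both lists, held 197 merged peaks on these genes among 116484.

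Small noncoding RNAs act mostly as structured RNAs inside protein complexes. The spliceosomal snRNAs (U1, U2, U4, U5, U6) recognise and remove introns, snoRNAs guide the modification of ribosomal RNA and scaRNAs that of snRNAs, 7SL is the RNA of the signal recognition particle, 7SK restrains the elongation factor P-TEFb, Y RNAs bind the Ro60 protein, and microRNAs pair with messenger RNAs through their seed. The human genome carries many dispersed pseudogene copies of 7SL, U6, 7SK and Y RNA, and many of these copies, like most snoRNA and microRNA genes, lie inside the introns of longer genes.

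The 6 microRNA genes with at least 20 reads in both IP libraries together are shown by their mature sequences, since microRNAs are the only class here whose sequences were at hand. The sequences are those of RefSeq for GRCh38.p14, written from 5′ to 3′, and the capitals mark the seed, bases 2 to 8. Lines for the same gene give its 5p and 3p arms.

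hsa-miR-3128: uCUGGCAAguaaaaaacucucau
hsa-miR-3145-5p: aACUCCAAacacucaaaacuca
hsa-miR-3145-3p: aGAUAUUUugaguguuuggaauug
hsa-miR-3651: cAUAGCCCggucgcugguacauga
hsa-miR-4284: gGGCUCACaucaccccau
hsa-miR-5094: aAUCAGUGaaugccuugaaccu
hsa-miR-5585-5p: uGAAGUACcagcuacucgagag
hsa-miR-5585-3p: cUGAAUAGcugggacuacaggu

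Of 11 microRNA genes with a peak, 10 had a sequence, which gave 15 mature microRNAs with 15 distinct seeds, so no seed was shared between genes or arms. The mature sequences lie at chr2:177255984-177256006 (minus strand) for miR-3128, chr6:138435262-138435283 (minus) for miR-3145-5p, chr9:92292461-92292484 (minus) for miR-3651, chr7:73711327-73711344 (plus) for miR-4284, chr15:89850690-89850711 (minus) for miR-5094, and chr1:32086949-32086970 (plus) for miR-5585-5p. The mature sequences of MIR3128, MIR4284, MIR5094 and MIR5585 lay wholly inside a peak in both lists. That of MIR3651 lay inside the lactate peak, and of MIR3145 the 5p arm lay inside the lactate peak and the 3p arm did not.

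The share of peaks on small noncoding RNA genes was of the same order in both lists. It was 0.146% for lactate (95% Wilson interval 0.115 to 0.184%) and 0.164% for ddH2O (0.140 to 0.192%), and these intervals cover counting error only. Among the 1000 peaks of best score, the −log10 of the deposited p-value, there was none in either list, which allows a share of up to 0.3% by the rule of 3 counts of the total (Wilson limit 0.383%). Among the best 10000 there were 10 for lactate (0.1%) and 8 for ddH2O (0.08%).

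By biotype, misc_RNA, which holds 7SL, 7SK, Y and vault RNAs, gave 30 lactate and 68 ddH2O peaks, snRNA 20 and 49, snoRNA 12 and 29, miRNA 6 and 9, and scaRNA 2 and 2. The most frequent class was 7SL, with 43 genes, of which 9 had a peak in both lists, 7 in the lactate list only and 27 in the ddH2O list only. U6 followed with 39 genes (3, 11 and 25) and Y RNA with 30 genes (4, 5 and 21). Of all merged peaks, 22.6% were called in both lists and 59.4% in the ddH2O list only. The ddH2O list is also the longer one, so the excess of genes with a ddH2O peak only is not particular to these classes. These gene counts were not tested against the shares of merged peaks. Of all 197 genes, 101 (51.3%) carried the number of a dispersed copy in their symbol, among them 35 of the 43 7SL genes, 38 of the 39 U6 genes and 5 of the 30 Y RNA genes. The other 8, 1 and 25 genes of these classes carried only a family label (Metazoa_SRP, U6, Y_RNA), which does not say whether a gene is a copy, and none was a parent gene named below. Symbols of snoRNA genes mark copies less regularly, so this count was not compared between classes.

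Of 26 parent genes, functional genes of small noncoding RNAs, 4 held such a peak. Not all belong to a class with a peak here, since RMRP, RPPH1 and RNU12, for example, do not. None of these 4 peaks had a q-value below 0.05, beside 42.7% of all lactate and 48.6% of all ddH2O peaks, and 4 peaks are too few to set them apart. 7SK (RN7SK, ENSG00000202198), at chr6:52995620-52995951, had a peak in the lactate list, at chr6:52995720-52995920, with a fold over input of 3.64 and a q-value of 0.0589. The vault RNA gene VTRNA1-1 (ENSG00000199990), at chr5:140711276-140711373, had a peak in the ddH2O list, at chr5:140711275-140711474, with a fold of 2.38 and a q-value of 0.729. The U5 snRNA genes RNU5A-1 and RNU5B-1, which lie near each other on chromosome 15, had ddH2O peaks with folds of 2.43 and 1.82 and q-values of 0.816 and 1. A further parent gene, RNU11 of the minor spliceosome, was overlapped by a ddH2O peak annotated to the long noncoding RNA TAF12-DT, with a fold of 3.64 and a q-value of 0.0193. For the other 21 parent genes, among them RN7SL1, RN7SL2, RMRP, RPPH1, RNY1, RNY3, RNY4, RNY5, RNU6-1 and VTRNA1-2, neither list held a peak on the gene. Reads that fit both a parent gene and its copies could be placed on either, and how such reads were treated is not given in the sources used here, so peaks on copies are uncertain as to their gene of origin.

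The fold over input of these peaks was close to that of the lists as a whole. In the lactate list the median was 3.31 (range 2.21 to 12.7) against 3.24 for all peaks, and in the ddH2O list 3.30 (1.75 to 10.9) against 3.03. The q-value was under 0.05 for 30 of 70 lactate peaks (42.9%), beside 42.7% of all lactate peaks, and for 82 of 157 ddH2O peaks (52.2%, interval 44.5 to 59.9%), beside 48.6% of all ddH2O peaks. Many peaks shared the same fold. The 5 commonest values, from 2.21 to 4.79, held 38 of 70 lactate peaks (54.3%), and the 5 commonest in the ddH2O list, from 1.82 to 4.25, held 78 of 157 (49.7%). The median length was 219 bases for lactate and 281 for ddH2O, beside 225 and 241 for all listed peaks. At the minimum length of 200 bases were 27 (38.6%) and 56 (35.7%) of them, beside 42.8% and 41.3% of all listed peaks.

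The highest folds in the lactate list belonged to RN7SL220P (12.7, q-value 1.85e-22), a gene labelled Y_RNA (ENSG00000202222) inside TRIT1 (9.96, 1.01e-13), the misc_RNA gene ENSG00000274721 inside SPRY4 (8.69, 1.25e-16), MIR5094 inside AP3S2 (8.41, 1.36e-09) and RN7SL589P inside ZFYVE28 (7.16, 1.18e-08). The summit of the RN7SL220P peak lay 323 bases outside the gene, with 21.9% of the peak on it, and at the same place the ddH2O list held a peak of higher fold (17.6, 9.87e-36) annotated to an intron of HERC4. In the ddH2O list they belonged to a gene labelled U6 (ENSG00000283575) inside XPR1 (10.9, 5.74e-17), MIR3128 inside NFE2L2 (9.90, 2.86e-15), the same Y_RNA gene inside TRIT1 (9.71, 3.54e-14), SNORD65C inside IGF2BP3 (9.23, 1.16e-29), and, at 9.10 each, a gene labelled Y_RNA (ENSG00000206734) inside NPEPPS and the snoRNA gene ENSG00000238934. The Y_RNA gene inside TRIT1, whose merged peak spanned chr1:39881288-39882035, therefore stood among the highest folds of both lists, with q-values far below 0.05 in each. In the ddH2O list, summits also lay outside the gene for MIR3128 (268 bases) and SNORD65C (211). In the lactate list they did for MIR5094 (80) and RN7SL589P (59). Apart from these and RN7SL220P, the genes of highest fold had no matched gene position. U1 genes, looked at after their values were seen, had 8 peaks in the ddH2O list, 5 of them with a q-value below 0.05 (beside 48.6% of all ddH2O peaks), and none in the lactate list, which is the shorter list and overlaps 27.8% of all ddH2O peaks. Those 5, also named after their values were seen, were the copy RNU1-67P (fold 6.07) and the variant U1 genes RNVU1-3 (5.46), RNVU1-7 and RNVU1-34 (4.25 each) and RNVU1-30 (3.28). A lactate peak with a fold of 4.04 did overlap the merged peak of RNU1-67P, but it was annotated to ENSG00000237903.

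Most of these peaks lay within protein-coding genes. A protein-coding gene span of RefSeq overlapped, by at least 1 base, 60 of 70 lactate peaks (85.7%, interval 75.7 to 92.1%) and 122 of 157 ddH2O peaks (77.7%, 70.6 to 83.5%). For all listed peaks the shares were 86.7% and 83.7%. For exon peaks of long noncoding RNA genes they were 43.1% and 41.8%. Where such a peak sits in an intron or exon of a longer gene, RNA of the small gene and of its host cannot be told apart by position.

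The summit, the position of highest signal, often lay outside the small RNA gene. A span could be matched for 143 of 197 genes (72.6%), too few for a statement on all of them. For genes with a symbol of their own it could be matched for 142 of 143. Over the 166 peaks on matched genes, the summit lay inside the gene for 77 (46.4%, interval 39.0 to 54.0%) and outside it for 89, at a median distance of 79 bases. It lay inside for 19 of 52 lactate peaks (36.5%, interval 24.8 to 50.1%) and for 58 of 114 ddH2O peaks (50.9%, 41.8 to 59.9%). The median share of a peak's bases that lay on the gene was 37.6%. By class the counts ranged widely. For 7SK the summit was inside for 8 of 8 peaks and for 7SL for 31 of 44 (70.5%). For U6 it was inside for 10 of 41 (24.4%), for microRNAs for 3 of 15 (20%) and for C/D box snoRNAs for 1 of 10 (10%). These classes also differ in gene length, since the median gene was 294.5 bases long for 7SL peaks, 104 for U6 and 81 for microRNAs, and the part of length in the difference was not tested.

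**Figure D1:**
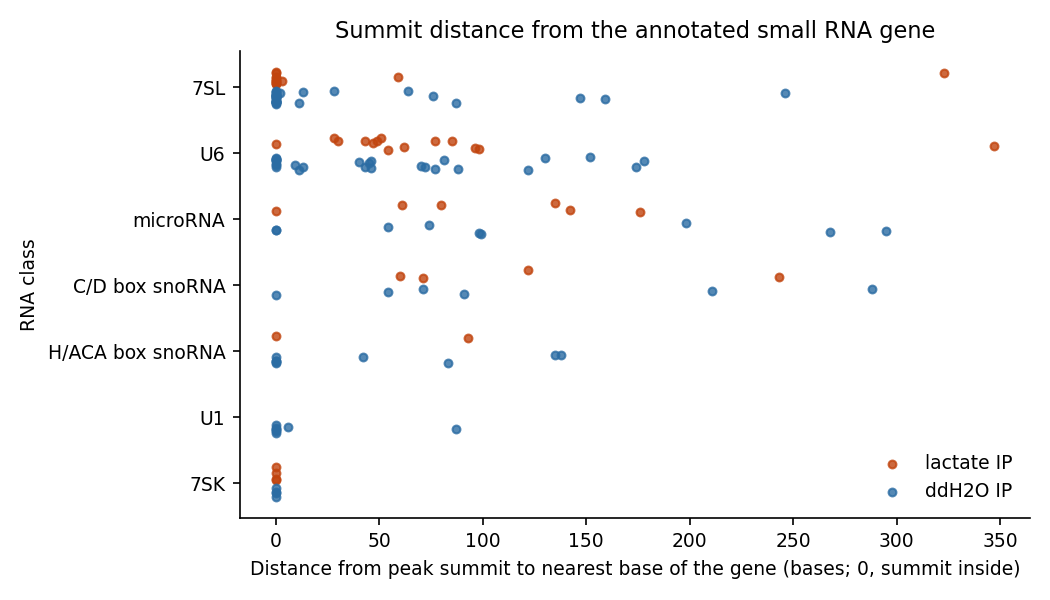
Distance in bases from the peak summit to the nearest base of the annotated small RNA gene (x axis, 0 when the summit is inside) for the 7 classes with at least 8 matched peaks (y axis), lactate IP in orange and ddH2O IP in blue. All 8 summits of 7SK peaks are at 0, whereas 12 of 15 microRNA summits lie outside the gene.

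Peaks in one list had a counterpart in the other about as often as other peaks did. An overlap of at least 1 base was found for 36 of 70 lactate peaks (51.4%, interval 40.0 to 62.8%), against 56.4% of all lactate peaks, and for 39 of 157 ddH2O peaks (24.8%, 18.7 to 32.1%), against 27.8% of all ddH2O peaks. By gene, 30 genes had a peak in both lists, 40 in the lactate list only and 127 in the ddH2O list only, and the lists differ in length in the same direction. Of the 45 merged peaks called in both lists, 25 (55.6%) had a q-value below 0.05 in each, beside 53.9% of all merged peaks called in both. Of the 30 shared genes, the fold was higher with lactate for 15 and with ddH2O for the other 15. Their median fold was 4.35 for lactate and 5.03 for ddH2O, while genes of a single list had medians of 3.24 (lactate) and 3.03 (ddH2O). Of the same 45 merged peaks, 17 carried different gene labels in the lists. SNORD17 is an example, since its ddH2O peak was annotated to the snoRNA and the lactate peak overlapping it to an exon of the host gene SNX5.

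To compare the IP libraries with each other, the whole reads of each 2000-base window centred on a merged peak were recovered from the deposited densities. The windows of these genes held 2081 lactate reads and 3083 ddH2O reads, with a median of 4 and 8 reads per window, beside 5 and 7 for all windows. Of 197 windows, 65 (33.0%) had at least 20 reads in both libraries together, as did 32.6% of all windows, and only these were compared. Reads were scaled by their sums, without the MT-RNR2 and MALAT1 windows, which left 1945000 lactate and 3536821 ddH2O reads. The 2 windows left out took 80.1% of lactate reads and 63.0% of ddH2O reads. Ratios below are log2 values of lactate over ddH2O with 1 read added to each count, and intervals are exact (Clopper-Pearson) at 95% for counting error only. From IP reads alone, more RNA bound by NSUN2 and more of that RNA in the cells cannot be told apart.

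The direction of the difference depended on the scaling. With scaling by sums, 14 of 65 windows (21.5%) were over 2-fold higher with lactate, beside 17.0% of all windows with enough reads, and 6 (9.23%) over 2-fold lower, beside 8.77%. With the MAnorm scaling of the deposited densities, 4 (6.15%) were higher, beside 7.65%, and 13 (20%) lower, beside 18.6%. The median log2 ratio was 0.49 by sums, against 0.13 for all windows, and 0.01 by MAnorm, against -0.20. The median of all windows with enough reads thus moved by -0.32 from sums to MAnorm. In both scalings the shares called stood near those of all windows. The windows higher under both scalings numbered 4, and all 6 lower by sums were also lower by MAnorm. Since the median ratio is lower by MAnorm, the agreement of the 6 lower windows is no independent measure. The same counts over all windows were not made. The list in which a peak was called moved with the direction. By sums, the 24 windows called for ddH2O only had 1 higher and 6 lower (median -0.18), the 7 called for lactate only 5 and 0 (median 1.39), and the 34 called in both lists 8 and 0 (median 0.67). The lists were called on the same IP reads, so this is no independent measure. Of the 6 H/ACA box snoRNA windows compared below 4 were called for ddH2O only, and of the 9 7SL windows 2.

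The counts below are those of a window named for a small RNA gene in it, not of the gene alone. For 48 of the 65 windows the gene had a span, and the called peak of highest fold shared no base with the gene in 7 of 30 windows with a lactate peak and in 5 of 43 with a ddH2O peak. The 2 windows with most reads were named for C/D box snoRNA genes. The SNORD17 window, around the merged peak at chr20:17962137-17962835 inside SNX5, held 246 lactate and 425 ddH2O reads, a log2 ratio of 0.08 (-0.16 to 0.30) by sums and 0.25 by MAnorm. Of the ddH2O peak there (fold 5.8), 18.6% of the bases lay on SNORD17 and the summit was 288 bases outside it, and the lactate peak (fold 5.77), annotated to an exon of SNX5, did not reach the snoRNA. The SNORD39 window, around chr9:21523728-21524929, held 177 and 160 reads, with 1.01 (0.69 to 1.33) by sums and 1.02 by MAnorm. It overlapped the window of another merged peak, and its lactate peak, annotated to an intron of the long noncoding RNA MIR31HG, began at 21524434, past a snoRNA gene of RefSeq at chr9:21524307-21524382 that the ddH2O peak covered. SNORD65C, inside IGF2BP3, held 50 and 74 reads with a log2 ratio of 0.31 (-0.25 to 0.83) by sums and 0.07 by MAnorm.

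Among 7SL genes with enough reads, 3 of 9 were over 2-fold higher and 0 lower by sums, and 2 higher and 0 lower by MAnorm. Counts by class, here and below, stand beside 17.0% higher and 8.77% lower of all windows by sums, and 7.65% and 18.6% by MAnorm, and are too small to set a class apart. RN7SL220P, inside HERC4, held the most reads of the class, 58 and 53, with 0.99 (0.43 to 1.56) by sums and 0.74 by MAnorm. A gene labelled Metazoa_SRP (ENSG00000277118, inside ETV5, merged peak at chr3:186076219-186076771) held 20 lactate and 3 ddH2O reads, the highest ratio of the 65, at 3.25 (1.85 to 5.99) by sums and 2.56 by MAnorm. RN7SL566P, inside SAMD4B, held 28 and 12 reads, with 2.02 (1.06 to 3.20) and 1.51. In the RN7SL220P and RN7SL566P windows a listed lactate peak overlapped the 7SL gene. For Metazoa_SRP no gene span could be matched, so only the annotation of the lactate peak names the gene.

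VTRNA1-1, a known substrate of NSUN2, held 29 lactate and 6 ddH2O reads, a log2 ratio of 2.96 (1.84 to 4.69) by sums and 2.38 by MAnorm. Its peak was listed for ddH2O only. A list compares an IP library with its own input, whereas this ratio compares the IP libraries with each other. Its window also overlapped that of another merged peak. With Metazoa_SRP and RN7SL566P, VTRNA1-1 was one of 3 of the 65 windows whose interval lay wholly above 2-fold by sums. No interval by sums lay wholly below a 2-fold decrease. These 3 windows are those of the highest ratios, and the same count over all windows was not made. By MAnorm, for which no intervals were computed, 4 windows were over 2-fold higher and 13 lower.

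The lowest ratios, all on genes with a ddH2O peak only, were those of the U6 copy RNU6-1327P inside KANK1 (2 lactate and 20 ddH2O reads, -1.94 by sums and -2.68 by MAnorm), SNORD11B inside NOP58 (4 and 31 reads, -1.82 and -2.43), a gene labelled Y_RNA (ENSG00000200922) inside ABHD17B (4 and 25 reads, -1.52 and -2.16), a gene labelled Y_RNA (ENSG00000252965) on chromosome 3 (9 and 42 reads, -1.24 and -1.74) and the U2 copy RNU2-7P inside IFT88 (6 and 28 reads, -1.19 and -1.78). SNORD11B, a box C/D snoRNA gene hosted by a gene for a core protein of C/D box snoRNPs, had its summit inside the snoRNA. The 2 next highest ratios after the 3 above were those of a gene labelled Y_RNA (ENSG00000202382) inside ELMOD3 (15 and 9 reads, 1.54 by sums and 0.92 by MAnorm) and RNU6-942P inside RAB10 (14 and 9 reads, 1.45 and 0.82), which passed 2-fold by sums and not by MAnorm.

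Of the 6 H/ACA box snoRNA windows, 1 was higher and 1 lower by sums, and 0 higher and 4 lower by MAnorm. SNORA58, inside MRPL3, held 22 and 69 reads, with -0.74 (-1.55 to -0.08) by sums and -1.08 by MAnorm. SNORA72, inside NUCKS1, held 45 and 38 reads, with 1.10 (0.45 to 1.77) and 0.78. For U6 genes, 3 of 16 were higher and 1 lower by sums, and 0 and 3 by MAnorm. RNU6-529P held the most reads, 39 and 58, with 0.30 (-0.33 to 0.90) by sums and 0.01 by MAnorm. For Y RNA genes, 2 of 13 were higher and 2 lower by sums, and 0 and 2 by MAnorm. RNY4P34, inside SPATS2L, held 49 and 101 reads, with -0.17 (-0.70 to 0.33) and -0.36, but only 1.72% of its ddH2O peak lay on the gene and the lactate peak there, in an intron of SPATS2L, did not reach it.

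Of the 6 microRNA windows, 2 were over 2-fold higher by sums and 0 by MAnorm, and 0 lower under either. MIR3145, inside NHSL1, held 21 and 14 reads, with 1.42 (0.40 to 2.54) by sums and 0.88 by MAnorm. MIR4284, inside STX1A, held 30 and 26 reads, with 1.06 (0.26 to 1.88) and 0.64. MIR5585, inside TMEM39B (21 and 23 reads), MIR5094, inside AP3S2 (26 and 39), MIR3128, inside NFE2L2 (18 and 29), and MIR3651, inside IARS1 (32 and 54), had ratios of 0.74, 0.30, 0.20 and 0.13 by sums and 0.26, -0.09, -0.26 and -0.20 by MAnorm. Of these mature sequences, shown above, only miR-4284 belonged to a gene that held the summit in both lists. MIR3651 overlaps the H/ACA box snoRNA gene SNORA84 (chr9:92292461-92292593), which the lactate peak there also overlapped. RNA of both genes cannot be told apart by position.

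Windows of the remaining classes followed. The U1 copy RNU1-67P, inside SLC25A43, held 24 and 21 reads, with 1.05 (0.15 to 1.97) by sums and 0.58 by MAnorm. The U7 copy RNU7-125P held 28 and 29 reads (0.81 by sums and 0.40 by MAnorm), the U4 copy RNU4-40P 7 and 15 (-0.14 and -0.78), the 7SK copy RN7SKP30 11 and 10 (0.99 and 0.35), the misc_RNA gene ENSG00000274721 40 and 48 (0.61 and 0.29), and the snoRNA gene ENSG00000238934 16 and 18 (0.70 and 0.17). SCARNA8, inside HAUS6, held 1 and 12 reads, RNU6ATAC8P 5 and 8, RNU5B-1 10 and 9, RNU5A-1 0 and 4, and 7SK itself 9 and 5. All were under the minimum of 20 reads, so they were not compared, and a difference there is left undecided.

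Windows could also hold reads of neighbouring sequence. The window of 94 of 197 merged peaks (47.7%) overlapped that of another merged peak, as did 47.9% of all windows. With at least 20 reads it was so for 44 of 65 (67.7%), beside 69.7% of all such windows, and by sums for 12 of the 14 higher and 3 of the 6 lower windows. Among the 21 windows with enough reads and no such overlap, 2 were higher and 3 lower by sums. Some genes also lay close together. RNU1-67P and RN7SL118P, both inside SLC25A43, and RNY3P16, outside it, fell within 33071 bases on chromosome X. SNORA24B, RNU5A-1 and RNU5B-1 fell within 20192 bases on chromosome 15. Such neighbours are not independent of each other.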

How the data were processed

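RIP-seq was done with 1 anti-NSUN2 IP library and 1 input library per condition, prepared with the SMART-Seq v4 kit, which primes cDNA from poly(A) tails, absent from most mature small noncoding RNAs. The submitters' processing notes name fastp 0.20.1, HISAT2 2.1.0, MACS2 2.2.7.1, bedtools 2.29.2, HOMER 4.11.1, DiffBind and GRCh38. The authors deposited 1 annotated peak list per condition, with a fold (ratio of IP over input), −log10 p-values and −log10 q-values, and q-values for each peak, called per library. The authors also deposited a MAnorm table of merged peaks with a normalized signal (read density) per IP library. Its M, A and P columns, the authors' own comparison, were not read. The ratios given by MAnorm are log2 ratios of both deposited densities, so they follow the authors' own normalization between the conditions.

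Reads were recovered from both densities, taken as reads plus 1 per kb of a 2000-base window rescaled by a line in the mean log2 density (slope 0.169, intercept -0.204). In 100% of windows both counts were whole within 0.05, or within a wider limit for windows of very many reads. On simulated data 100% of 116484 windows gave back their reads. Those data were made with the same model, so this checks the arithmetic and not the model. With 1 library per group, called means over 2-fold with at least 20 reads, and no test was run. Input depth is not given in the sources used here. Gene spans, host genes and microRNA sequences came from RefSeq GRCh38.p14, and bedtools 2.31.1 gave overlaps (at least 1 base). Named were 26 parent genes, the gene with most reads in each class, the 10 windows with most reads, the 5 highest and 5 lowest ratios, the 5 highest folds per list and microRNA genes with 20 reads. RN7SL118P, RNY3P16, SNORA24B and the U1 genes were named after their values were seen. The genes, classes and rules were chosen with earlier results of these data known. Alternatives were other peak thresholds, overlaps, scalings, read minimums and window filters. Python 3.11.15, numpy 2.4.6, pandas 2.3.3, scipy 1.17.1, statsmodels 0.14.6 and matplotlib 3.10.9 were used.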

Additional observations from a re-analysis of the deposited data

How the results depend on the processing

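No paired analysis was possible because each group held 1 library, and no replicate could be left out. The share of these peaks within protein-coding spans was the same when the whole peak had to lie inside. For all listed peaks it fell to 84.0% (lactate) and 80.9% (ddH2O). The share of listed peaks stayed within its interval for lactate at a q-value below 0.05 or a fold of at least 4, and for ddH2O at a q-value below 0.05, while it was 0.203% for ddH2O at a fold of at least 4. It was 0.1% (lactate) and 0.08% (ddH2O) in the best 10000 peaks and 0% in the best 1000. An overlap of 50% of both peaks lowered the shared peaks to 34.3% (lactate) and 14% (ddH2O), beside 38.0% and 19.1% of all listed peaks. A q-value below 0.05 raised the shared peaks to 76.7% and 36.6%, and the same share over all listed peaks was not computed. The median fold was 4.80 (lactate) and 4.95 (ddH2O) at a q-value below 0.05, and 2.78 for lactate peaks outside protein-coding spans. By sums, 14 and 6 of 65 windows were over 2-fold higher and lower with lactate. The counts were 4 and 13 of 65 with MAnorm scaling, and 3 and 0 of 65 at 4-fold. They were 31 and 20 of 117 at 10 reads, 5 and 2 of 24 at 50 reads, and 50 and 47 of 197 with no minimum. Without overlapping windows they were 2 and 3 of 21. Shares over all windows were computed only for sums and MAnorm scaling at 2-fold and 20 reads. The median log2 ratio of 0.49 was 0.011 with MAnorm scaling and -0.40 with sums over all windows, where the median of all windows with enough reads was -0.77, against 0.13 by sums without MT-RNR2 and MALAT1. The cause of each change was not tested. The number of reads, with a median of 12 per window in both libraries together, limits every ratio.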

Other observations

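Genes of tRNAs, the best known substrates of NSUN2, were looked at after the values above were seen, since the biotypes searched for do not include them. Of 443 nuclear tRNA genes of RefSeq, 2 (0.451%, 95% Wilson interval 0.124 to 1.63%) lay under a lactate peak and 9 (2.03%, 1.07 to 3.82%) under a ddH2O peak. Of these, 1 and 4 had a q-value below 0.05, beside 42.7% and 48.6% of all listed peaks. The library kit primed cDNA from poly(A) tails, absent from most mature small noncoding RNAs, so these counts do not measure binding of mature tRNAs. The lactate peaks were annotated to the 3′ UTR of CTC1, where TRI-AAT4-1 lies (fold 4.42, q-value 0.00936), and to an intron of ZNF767P, where TRS-AGA5-1 lies (fold 2.73, q-value 0.979). Among the ddH2O peaks, the tRNA genes TRS-GCT3-1 (fold 2.90, q-value 0.0444), TRG-GCC1-5, TRK-CTT2-4 and TRS-AGA5-1 (fold 3.64 and q-value 0.0193 each) reached a q-value below 0.05. None of 49 nuclear rRNA genes lay under a peak in either list, which allows a share of up to 6.12% by the rule of 3 counts of the total (Wilson limit 7.27%), for counting error only.

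The annotation of a peak to a small RNA gene did not cover all such genes that a peak overlapped. RefSeq snoRNA genes under a peak numbered 36 (lactate) and 74 (ddH2O) of 1199, while peaks annotated to a small noncoding RNA gene covered 11 and 23 of them. The peaks over 19 and 37 of these snoRNA genes were annotated to protein-coding genes, and those over 6 and 11 to long noncoding RNA genes. For microRNA genes, 30 and 41 of 1913 lay under a peak, of which 6 and 10 were under a peak annotated to a small noncoding RNA gene.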
